A study of Mus musculus with 4 samples.

Results

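The surface markers of mesenchymal stem cells described here are 10 genes chosen by name: Eng (CD105), Nt5e (CD73), Thy1 (CD90), Ly6a (Sca-1), Cd44, Pdgfra, Pdgfrb, Mcam (CD146), Alcam (CD166) and Cspg4 (NG2). All 10 were found, each on 1 row, among the 54532 genes of the deposited count table, and all 10 had enough reads to be tested. RNA came from bone marrow mesenchymal stem cells (BMSCs) of C57BL/6J mice aged 1 month, given as male. The 2 control libraries were from mice with floxed Rheb alleles (rhebFL/FL), and the 2 libraries labelled rhebCKO were from littermates that also carried Ucp1-Cre, so the floxed alleles were common to both groups. Ucp1-Cre is driven by a brown adipocyte promoter, so the deletion was aimed at another tissue than the cells sequenced. The design names 2 mice of each kind for the 2 libraries. The sources used here do not say how the marrow cells were isolated, sorted or cultured.

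Mesenchymal stem cells have no single defining protein and are recognised by a panel of surface molecules together with the absence of blood and endothelial markers. Eng is a co-receptor for ligands of the TGF-beta and BMP family. Nt5e is an ectoenzyme that makes adenosine from AMP. Thy1 and Ly6a are small proteins held in the membrane by a lipid (GPI) anchor, and Cd44 is the main receptor for hyaluronan. Pdgfra and Pdgfrb are receptor tyrosine kinases for platelet-derived growth factors. Mcam and Alcam are immunoglobulin-family adhesion molecules, and Cspg4 is a membrane proteoglycan. In marrow these genes are not exclusive to stroma: Cd44 and Alcam are also carried by many blood cells, Ly6a by mouse blood stem cells and lymphocytes, Thy1 by mouse T cells, Eng and Mcam by endothelium, and Pdgfrb, Mcam and Cspg4 by pericytes.

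RefSeq promoters (build GRCm38.p6) were held for 7 of the 10 genes. The 250 bases before the RefSeq start are shown for Eng, Cd44 and Pdgfra, the 3 of the 7 whose window held no annotated exon. Capitals mark CG dinucleotides. The Eng window was chr2:32646345-32646594 on the plus strand, that of Cd44 chr2:102901666-102901915 on the minus strand, and that of Pdgfra chr5:75152001-75152250 on the plus strand.
Eng: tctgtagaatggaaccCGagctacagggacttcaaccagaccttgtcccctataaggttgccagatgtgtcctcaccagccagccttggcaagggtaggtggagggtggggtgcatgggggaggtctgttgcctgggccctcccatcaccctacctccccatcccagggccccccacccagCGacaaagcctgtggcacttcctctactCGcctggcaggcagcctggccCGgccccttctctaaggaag
Cd44: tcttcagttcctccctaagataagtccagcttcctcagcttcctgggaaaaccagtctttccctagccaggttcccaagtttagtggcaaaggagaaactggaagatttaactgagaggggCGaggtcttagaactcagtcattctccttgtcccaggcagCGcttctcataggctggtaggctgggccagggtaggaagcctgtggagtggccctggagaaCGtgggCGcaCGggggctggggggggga
Pdgfra: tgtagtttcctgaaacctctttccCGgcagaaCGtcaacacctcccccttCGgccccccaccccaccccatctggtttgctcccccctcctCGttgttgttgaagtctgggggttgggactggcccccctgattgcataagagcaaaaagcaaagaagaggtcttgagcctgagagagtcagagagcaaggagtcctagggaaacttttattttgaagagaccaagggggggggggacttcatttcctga

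The Eng and Pdgfra windows held 4 CG dinucleotides each and the Cd44 window 5, where the median over 32851 RefSeq promoter windows of the same length was 6. Those of Cspg4, Nt5e, Alcam and Mcam held 12, 21, 22 and 25. Each window was searched on both strands for the GC box GGGCGG, for TATAAA and for CCAAT. Across all promoters, 32.7% held GGGCGG, 12.4% TATAAA and 33.8% CCAAT. None of these letters occurred in the Eng, Cd44 or Pdgfra windows. GGGCGG occurred in those of Nt5e, Mcam, Alcam and Cspg4, CCAAT in that of Alcam alone among the 7, and TATAAA in none of the 7.

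The libraries held between 17425669 and 19001878 counted reads. The label of male sex was not borne out by the replicates numbered 1: Xist had 19502 and 31103 reads in replicate 1 of control and rhebCKO and 8 and 2 in replicate 2, while the Y-linked gene Ddx3y had 0 and 0 against 1945 and 1631. Each group thus held 1 library of each kind, and ratios within a replicate number are given beside the group values. In addition, control replicate 2 stood apart for many of the members, so results are also given without it. That choice rests on the members' own values. Over all tested genes, control replicate 2 was farthest from the mean of the other 3 libraries for 30.0%, and rhebCKO replicate 2 for 28.2%. Any fit without 1 library leaves the 2 kinds (by Xist and Ddx3y reads) unequal between the groups. Kind and genotype are then partly confounded. Rheb itself was not lower in the libraries labelled rhebCKO (89.7 and 81.5 CPM in control, 129 and 121 CPM in rhebCKO), which does not check a deletion aimed at brown adipocytes.

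Levels between genes were compared as CPM (reads of a gene relative to the TMM-scaled library size) per kilobase of exon length. Mcam and Pdgfrb were the most abundant members, with means over the 4 libraries of 108.9 ± 16.4 and 108.3 ± 25.1 CPM per kilobase (SD, n = 4), and their ranges overlapped. Ly6a at 36.1 ± 8.66, Cd44 at 34.2 ± 10.3 and Eng at 30.7 ± 4.07 CPM per kilobase (SD, n = 4) formed a middle group, neighbours of which also overlapped. The lowest Pdgfrb value, 78.1, lay above the highest Ly6a value, 42.8, and the lowest Eng value, 26.7, above the highest Alcam value, 11.7. Alcam at 10.1 ± 2.64, Thy1 at 9.42 ± 0.710, Pdgfra at 5.59 ± 3.13 and Cspg4 at 4.12 ± 1.89 CPM per kilobase (SD, n = 4) followed, each overlapping its neighbour. Nt5e, whose enzyme is one of the classical human markers, was lowest at 1.26 ± 0.368, and its highest library, at 1.67, was below the lowest Cspg4 library, at 2.56. The exon length joins all annotated transcripts, so levels of genes with many long isoforms are understated.

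**Figure D1:**
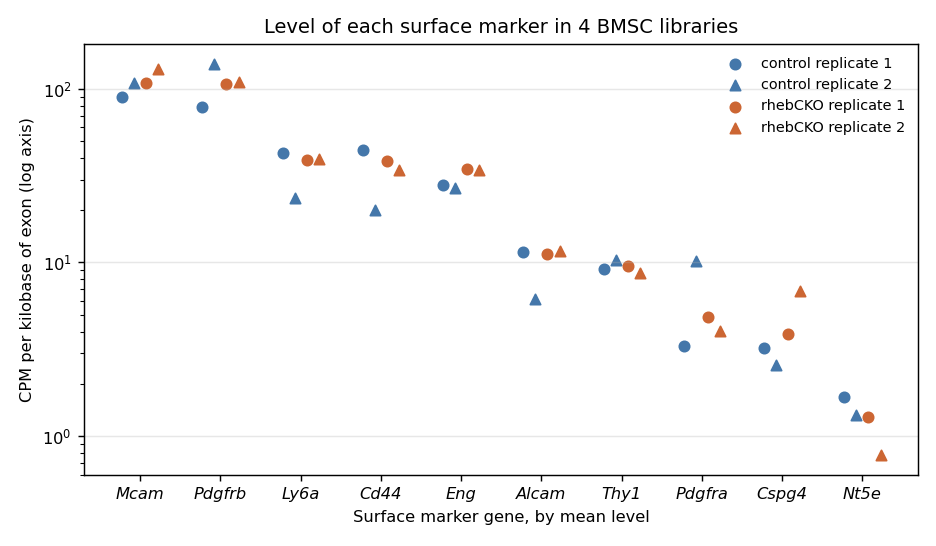
Level of each surface marker gene in CPM per kilobase of exon (log axis) in each of the 4 BMSC libraries, with control in blue, rhebCKO in orange, replicate 1 as circles and replicate 2 as triangles. Mcam and Pdgfrb lie highest, with means of 108.9 and 108.3 CPM per kilobase, and Nt5e lowest at 1.26; control replicate 2 is the lowest library for Eng, Ly6a, Cd44, Alcam and Cspg4 and the highest for Pdgfrb, Thy1 and Pdgfra.

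The comparison of rhebCKO with control asks whether these marrow cells differ between mice with and without Ucp1-Cre, which was aimed at Rheb in brown fat. Only the rhebCKO mice carried the Cre, so its own effect cannot be told apart from that of a deletion. None of the 10 members passed the test. edgeR's quasi-likelihood test, adjusted with Benjamini-Hochberg over 14963 genes at 0.05, called 0 members and 0% of all genes, and every member had an adjusted p of 1. At an unadjusted p under 0.05, 1 member (Cspg4) stood out by edgeR, 1 by DESeq2 and 1 by limma-voom. Over all genes this held for 1.86% by edgeR (0.762% higher and 1.10% lower in rhebCKO). It held for 234 of the 14963 genes by DESeq2 and for 248 by limma-voom. DESeq2 called 0 members and 0.154% of genes at an adjusted p under 0.05. The fitted log2 fold change (rhebCKO over control) was above 0 for 6 members and below 0 for 4, with a median of 0.20. Over all tested genes 48.8% were above 0 and the median was -0.01. The groups did not overlap for 4 members: Eng, Mcam and Cspg4 were higher in both rhebCKO libraries, as were 10.8% of all genes, and Nt5e was lower in both, as were 11.3%. In either direction, 22.0% of all genes did not overlap. With 2 libraries a group, an exact two-sided permutation test of 1 gene cannot go below p = 0.333, and the model borrows its estimate of spread from all genes.

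Of the 3 members also carried by pericytes, Cspg4 and Mcam had higher values in both rhebCKO libraries, while the groups overlapped for Pdgfrb (log2 fold change -0.01). Cspg4 (ENSMUSG00000032911; chromosome 9, 56865033 to 56899870, plus strand, mm10) had 38.2 and 30.5 CPM in control replicates 1 and 2 and 46.0 and 81.6 CPM in rhebCKO replicates 1 and 2. The 2 groups did not overlap, but most of the difference lay in rhebCKO replicate 2. The log2 fold change was 0.89 (SE 0.30, 95% interval 0.20 to 1.59, adjusted p = 1 by edgeR), with 106 genes at a smaller p. Replicate 1 alone gave a log2 ratio of 0.27 and replicate 2 alone 1.41, and the fitted value without rhebCKO replicate 2 was 0.44 (SE 0.29).

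Mcam (ENSMUSG00000032135; chromosome 9, 44134469 to 44142727, plus strand), which binds laminin of vessel walls, had 301 and 361 CPM in control replicates 1 and 2 and 361 and 435 CPM in rhebCKO replicates 1 and 2. The groups were separated by less than 1 CPM, 360.8 in control replicate 2 and 361.3 in rhebCKO replicate 1. Its log2 fold change was 0.27 (SE 0.23, 95% interval -0.27 to 0.81, adjusted p = 1), and the ratio was 0.26 within replicate 1 and 0.27 within replicate 2. Leaving out 1 library moved the fitted value to 0.14 (without control replicate 1 or rhebCKO replicate 2), 0.41 (without control replicate 2) or 0.39 (without rhebCKO replicate 1). Within each group replicate 2 was above replicate 1, by 0.26 in control and 0.27 in rhebCKO on the log2 scale. An annotated antisense gene, Gm10687, shares 17 bases of exon with Mcam and had 57 to 91 reads. Other pericyte genes were mixed: Rgs5 had 19.0 and 59.2 CPM in control and 49.8 and 21.2 CPM in rhebCKO, and the list of 9 such genes had 4 with fitted values above 0 and 5 below.

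Eng (ENSMUSG00000026814; chromosome 2, 32646595 to 32682669, plus strand) had 112 and 108 CPM in control replicates 1 and 2 and 139 and 138 CPM in rhebCKO replicates 1 and 2. The groups did not overlap, and the libraries of each group lay within a few CPM of each other. The log2 fold change was 0.33 (SE 0.19, 95% interval -0.10 to 0.76, adjusted p = 1 by edgeR). Replicate 1 alone gave a log2 ratio of 0.31 and replicate 2 alone 0.35, and leaving out any 1 library kept the fitted value between 0.31 and 0.36. The 10 listed endothelial genes had fitted values above 0 (median 0.25), none past the adjusted threshold. The groups overlapped for Tek, Emcn, Tie1, Esam and Vwf, the last with a log2 fold change of 0.01 (SE 0.50) and a ratio of -0.75 within replicate 1. The summed level of the 10 genes was 826 and 953 CPM in control and 999 and 1184 CPM in rhebCKO. Pecam1, an adhesion molecule of endothelium and platelets, had 192 and 214 CPM in control and 220 and 265 CPM in rhebCKO, and the endothelial cadherin Cdh5 had 304 and 388 CPM against 400 and 466 CPM. Their part in the Eng and Mcam values was not tested, and in bulk RNA more cells of a type cannot be told apart from more RNA per cell. Annotated exons of Eng share 61 bases with those of Fpgs on the other strand, and the library kit does not mark strand.

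**Figure D2:**
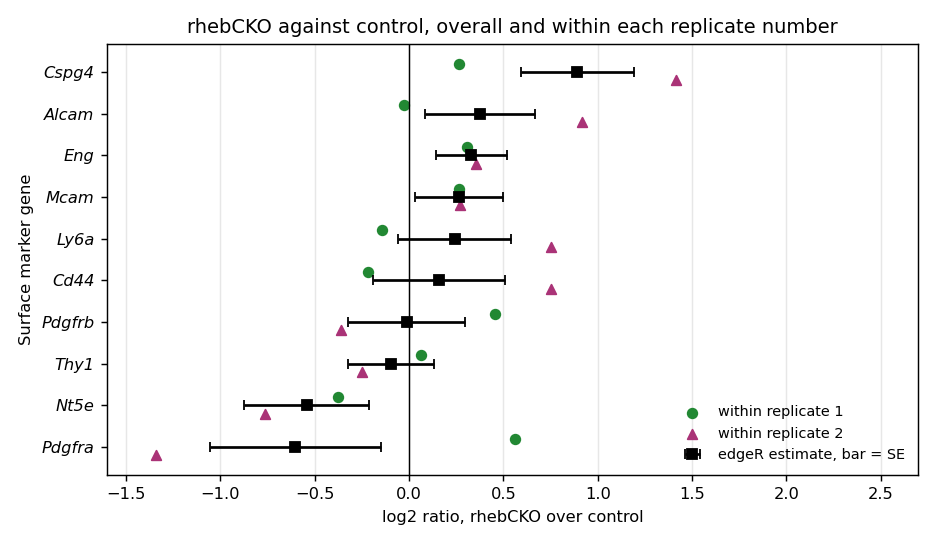
log2 ratio of rhebCKO over control for each surface marker, as the edgeR estimate with its SE (black squares, bars), as the ratio within replicate 1 (green circles) and as the ratio within replicate 2 (purple triangles). The 3 values of Eng and of Mcam nearly coincide, at 0.31 to 0.35 and 0.26 to 0.27, whereas Pdgfra runs from -1.34 within replicate 2 to 0.56 within replicate 1.

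Nt5e (ENSMUSG00000032420; chromosome 9, 88327197 to 88372092, plus strand) had lower values in both rhebCKO libraries. Its counts were the smallest of the members, 269 and 217 reads in control replicates 1 and 2 and 193 and 116 reads in rhebCKO replicates 1 and 2. In CPM these were 14.4 and 11.4 against 11.0 and 6.68, so control replicate 2 and rhebCKO replicate 1 were close and rhebCKO replicate 2 was low. The log2 fold change was -0.54 (SE 0.33, 95% interval -1.31 to 0.23, adjusted p = 1 by edgeR), with -0.21 without rhebCKO replicate 2 and -0.95 without rhebCKO replicate 1. The ratio was -0.38 within replicate 1 and -0.76 within replicate 2. The other genes of extracellular adenosine did not pass either: of 8 tested among 11 listed, 5 had fitted values above 0 and 3 below. Ada, which breaks adenosine down, had 7.21 and 6.37 CPM in control and 10.6 and 8.64 CPM in rhebCKO (edgeR log2 fold change 0.50 with SE 0.30, not called). The receptor gene Adora1 had 1, 1, 0 and 2 reads.

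Thy1 (ENSMUSG00000032011; chromosome 9, 44043384 to 44048579, plus strand) varied least. It had 27.3 and 31.0 CPM in control replicates 1 and 2 and 28.5 and 26.0 CPM in rhebCKO replicates 1 and 2, a 1.19-fold range over the 4 libraries. The groups overlapped, and the log2 fold change was -0.10 (SE 0.23, 95% interval -0.63 to 0.43, adjusted p = 1 by edgeR). The interval includes changes of that size in either direction, and the fitted value without control replicate 2 was 0.0085. Thy1 itself had 452 to 589 reads. In mice it is also a T cell protein. The 11 listed T and natural killer cell genes summed to 43.4 and 21.6 CPM in control and 38.4 and 37.2 CPM in rhebCKO. Most of this was Cd4, which had 640 and 296 reads in control and 535 and 526 in rhebCKO, while Trac had 35 to 57 reads, Lck 17 to 37 and Cd3e 0 to 6. The part of T cells in the Thy1 values was not tested.

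The remaining 5 members divided by their values in control replicate 2. Pdgfra and Pdgfrb were highest there, and Cd44, Alcam and Ly6a lowest. Control replicate 2 was the library farthest from the mean of the other 3 (on log2 CPM) for 6 of 10 members, where this held for 30.0% of all tested genes. The 6 were Eng, Thy1, Ly6a, Cd44, Pdgfra and Alcam, whereas for Pdgfrb the farthest library was control replicate 1. For the other 3 members it was rhebCKO replicate 2, which was farthest for 28.2% of all tested genes. This is a description of 4 libraries and was not tested.

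Pdgfra (ENSMUSG00000029231; chromosome 5, 75152292 to 75198215, plus strand), the receptor used to sort marrow stroma together with Sca-1, had 33.1 and 102 CPM in control replicates 1 and 2 and 48.8 and 40.2 CPM in rhebCKO replicates 1 and 2. Control replicate 1 was the lowest library and control replicate 2 the highest, so both rhebCKO libraries lay between the controls. The log2 fold change was -0.60 (SE 0.45, 95% interval -1.65 to 0.44, adjusted p = 1 by edgeR). Replicate 1 alone gave 0.56 and replicate 2 alone -1.34. Without control replicate 2, which left only a control with Xist reads, the fitted log2 fold change changed sign to 0.44 (SE 0.34). Without control replicate 1 it was -1.20 (SE 0.32) and passed edgeR's test (adjusted p = 0.0192). It was then the 1 member called, beside 1.22% of all genes, with the lone control library assumed to vary like the rhebCKO pair.

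Pdgfrb (ENSMUSG00000024620; chromosome 18, 61045150 to 61085061, plus strand) had 428 and 764 CPM in control replicates 1 and 2 and 586 and 595 CPM in rhebCKO replicates 1 and 2. The rhebCKO libraries nearly coincided and again lay between the controls. The log2 fold change was -0.01 (SE 0.31, 95% interval -0.73 to 0.70, adjusted p = 1 by edgeR), with 0.45 within replicate 1, -0.36 within replicate 2, and 0.47 (SE 0.34) without control replicate 2. Per kilobase, Pdgfrb exceeded Pdgfra 23.7-fold and 13.7-fold in control replicates 1 and 2 and 22.0-fold and 27.1-fold in rhebCKO replicates 1 and 2.

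Ligands and handling genes of the same receptors were present in all libraries. Of 7 listed genes, 4 had fitted values above 0, 3 below, and none passed. Pdgfb, a ligand of both receptors, had 67.2 and 73.8 CPM in control and 64.7 and 102 CPM in rhebCKO. Lrp1, an endocytic receptor that associates with Pdgfrb, had 1378 and 2370 CPM in control and 1975 and 2611 CPM in rhebCKO.

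Cd44 (ENSMUSG00000005087; chromosome 2, 102811141 to 102901665, minus strand) had 301 and 136 CPM in control replicates 1 and 2 and 259 and 229 CPM in rhebCKO replicates 1 and 2. Control replicate 2 was low and the other 3 libraries lay together. The log2 fold change was 0.16 (SE 0.35, 95% interval -0.66 to 0.97, adjusted p = 1 by edgeR), with -0.22 within replicate 1, 0.75 within replicate 2, and -0.29 (SE 0.32) without control replicate 2.

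Alcam (ENSMUSG00000022636; chromosome 16, 52248996 to 52454074, minus strand) had 81.7 and 44.1 CPM in control replicates 1 and 2 and 80.1 and 83.1 CPM in rhebCKO replicates 1 and 2. Again 1 control library stood below 3 near-equal ones. Its log2 fold change of 0.38 (SE 0.29, 95% interval -0.30 to 1.05, adjusted p = 1 by edgeR) was 0.0071 (SE 0.31) without control replicate 2. The ratio was -0.03 within replicate 1 and 0.91 within replicate 2.

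Ly6a (ENSMUSG00000075602; chromosome 15, 74994877 to 74998031, minus strand) had 51.6 and 28.2 CPM in control replicates 1 and 2 and 46.7 and 47.6 CPM in rhebCKO replicates 1 and 2. Its log2 fold change was 0.24 (SE 0.30, 95% interval -0.45 to 0.93, adjusted p = 1 by edgeR), and -0.12 (SE 0.31) without control replicate 2. Ly6a has close paralogs, so its counts are uncertain: the treatment of multi-mapping reads is not stated in the sources used. In the Ly6 family, Ly6e had 395 and 189 CPM in control and 340 and 350 CPM in rhebCKO, lowest in control replicate 2. Ly6c2, a gene of monocytes, was also lowest there, at 44.6 and 11.5 CPM against 24.8 and 24.5 CPM, as was Ly6g. Ly6c1, at 12.2 and 11.3 CPM against 11.9 and 10.8 CPM, and Ly6d were instead lowest in rhebCKO replicate 2.

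Per kilobase, Pdgfrb was 1.76 times Cd44 in control replicate 1, 6.94 times in control replicate 2, and 2.80 and 3.21 times in rhebCKO replicates 1 and 2. Several markers of other cell types were also lowest or highest in control replicate 2, where the blood cell lists were not alike. Their median log2 deviations from the mean of the 4 libraries were -1.03 for neutrophils, -0.32 for macrophages and monocytes and -0.29 for T and natural killer cells. They were 0.10 for haematopoietic progenitors and 0.38 for B cells. Ptprc (CD45), carried by all white blood cells, had 322 and 149 CPM in control replicates 1 and 2 and 316 and 282 CPM in rhebCKO replicates 1 and 2, an order like that of Cd44. The summed level of 10 neutrophil genes was 2816 and 956 CPM in control and 1952 and 2377 CPM in rhebCKO. That of 10 macrophage and monocyte genes was 10690 and 7356 CPM against 8260 and 10160 CPM. The macrophage sum was mostly the lysozyme gene Lyz2, at 7768 and 5162 CPM against 5688 and 7193 CPM. Cd14 and C1qa of the same list were lowest in rhebCKO replicate 1 instead. The sum of 9 fibroblast matrix genes was 39170 and 58080 CPM in control and 43260 and 42150 CPM in rhebCKO, highest in control replicate 2 as were Pdgfra and Pdgfrb. It was mostly Col1a1, Fn1 and Col1a2. Postn of the same list was highest in control replicate 1 instead, at 1962 and 1491 CPM against 1461 and 1068 CPM. The median log2 deviation in control replicate 2 was 0.36 for fibroblasts, 0.44 for osteoblasts and 0.50 for chondrocytes. All listed macrophage, neutrophil and fibroblast genes had reads in all 4 libraries. The part of these cell types in the values of the 5 members was not tested.

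**Figure D3:**
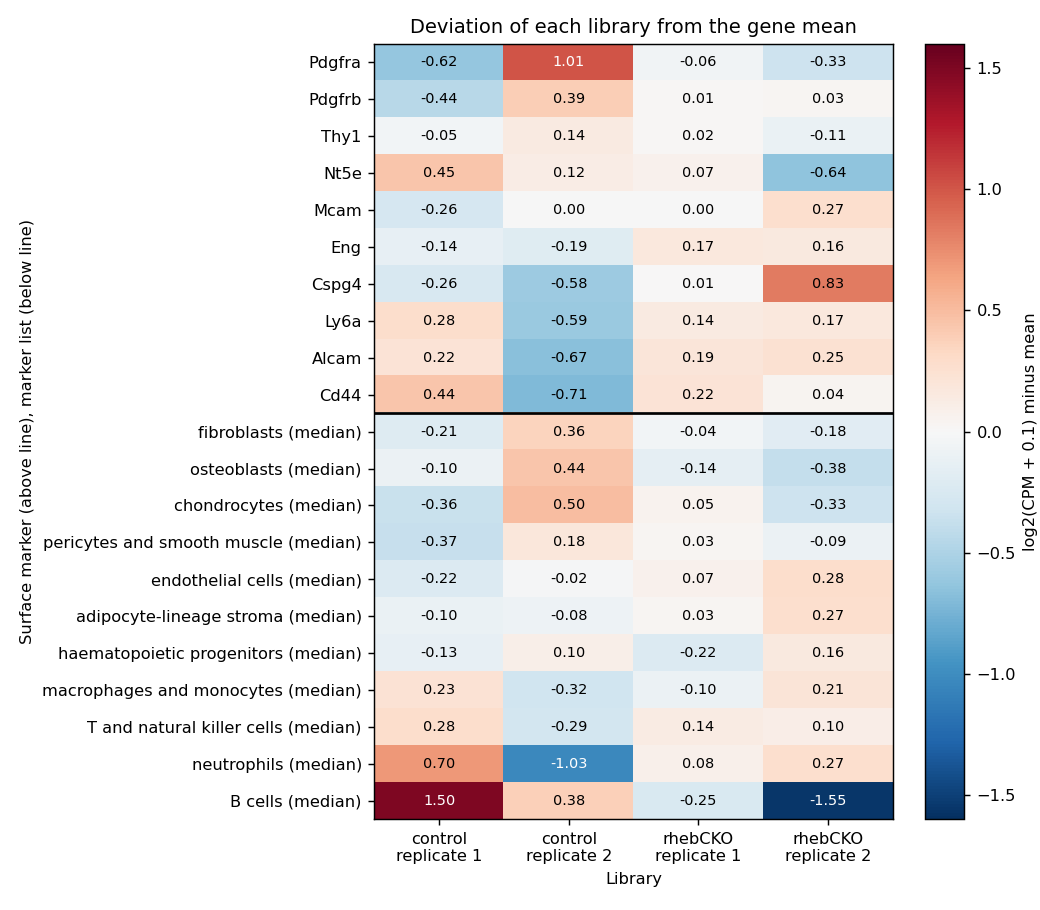
Deviation of each library (columns) from the mean of the 4 libraries, in log2(CPM + 0.1), for the 10 surface markers (above the line, ordered by control replicate 2) and as the median of each cell type list (below it); red is above and blue below the mean. In control replicate 2, Pdgfra is at 1.01 and Cd44 at -0.71, with the chondrocyte list at 0.50, the fibroblast list at 0.36 and the neutrophil list at -1.03.

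**Figure D4:**
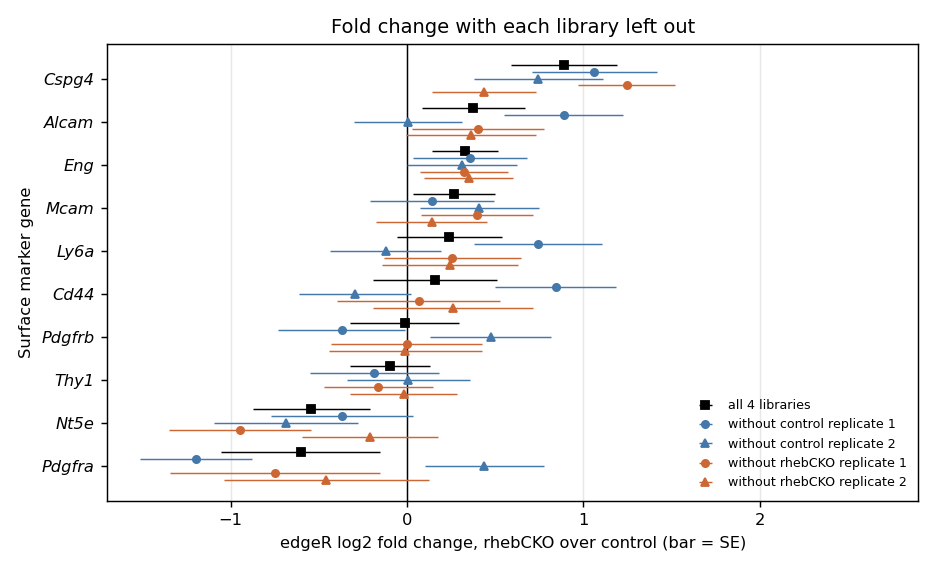
edgeR log2 fold change of rhebCKO over control with its SE for each surface marker, from all 4 libraries (black) and with each library left out in turn. Without control replicate 2 (blue triangles) Pdgfra and Pdgfrb lie at 0.44 and 0.47 and Cd44 at -0.29, on the other side of 0 from the black squares.

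The label of mesenchymal stem cells was read against markers such cells should lack. All 10 surface markers were present, with at least 116 reads in every library. Of 11 genes that stromal cells should lack, none was at 0 in all libraries, and their sum was 1191 and 748 CPM in control and 1095 and 1275 CPM in rhebCKO. Lyz2, a lysozyme of macrophages and neutrophils, had 5162 to 7768 CPM, and Csf1r, the macrophage growth factor receptor, 590 to 818 CPM. All 4 libraries thus held stromal markers together with genes of blood cells.

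Other stromal surface and identity genes gave 0 calls among 20 tested of 21 listed, with 12 fitted values above 0, 8 below and a median log2 fold change of 0.02. Itgb1, the integrin beta subunit shared by collagen and fibronectin receptors, was highest at 1503 to 1918 CPM. Pdpn, a mucin-type protein of stromal and lymphatic cells, had 14.3 and 8.79 CPM in control and 5.65 and 6.40 CPM in rhebCKO (edgeR log2 fold change of -0.94 with SE 0.34, adjusted p = 1 by edgeR). Anpep (CD13), an aminopeptidase, had 88.7 and 58.0 CPM in control and 83.2 and 171 CPM in rhebCKO, high in rhebCKO replicate 2 as Cspg4 was. Lepr, the leptin receptor that marks perivascular stroma of adult marrow, was scarce, with 80 and 76 reads in control and 45 and 44 reads in rhebCKO (edgeR log2 fold change -0.70 with SE 0.36, not called). Ngfr (CD271) had 3 to 22 reads and was not tested.

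Genes that act with the members also gave no call by edgeR. Of 13 tested endoglin partners and ligands among 15 listed, 9 had fitted values above 0 and 4 below, and the ligands Gdf2 and Bmp10 had 0 reads in every library, which allows at most 3 counts in each. Acvrl1, the type I receptor that works with Eng, had 40.0 and 44.3 CPM in control and 41.3 and 60.7 CPM in rhebCKO. Of 12 hyaluronan genes around Cd44, 9 had fitted values above 0 and 3 below. Stab2, a hyaluronan scavenger receptor of sinusoidal endothelium, had 244 and 171 reads in control and 300 and 366 reads in rhebCKO (log2 fold change 0.79, SE 0.29, adjusted p = 1), while the hyaluronan synthase Has2 had 20.2 and 21.6 CPM against 17.4 and 12.2 CPM (log2 fold change -0.50, SE 0.27, adjusted p = 1). Of 11 tested ligands and partners of Mcam, Alcam, Cspg4 and Thy1 among 12 listed, 10 had fitted values above 0 and 1 below (median 0.22). Lama5, a laminin chain of vessel walls, had 124 and 108 CPM in control and 142 and 200 CPM in rhebCKO (edgeR log2 fold change of 0.56 with SE 0.23, adjusted p = 1 by edgeR). Adgre5, a leukocyte receptor that binds Thy1, had 87.6 and 69.4 CPM in control and 101 and 109 CPM in rhebCKO, and the Alcam ligand Cd6, a T cell gene, had 2, 0, 3 and 7 reads.

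Without control replicate 2, edgeR called 0 of the 10 members beside 0.140% of all genes, and 7 members had fitted values above 0 (median 0.16).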

How the data were processed

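The deposited table held raw read counts per gene, 1 column per library, made by the authors. Trimmomatic, HISAT2, featureCounts and mm10 were named, without versions, per the submitters' processing notes. No annotation release or rule for multi-mapping reads is stated in the sources used. Of 54532 gene IDs, 54495 were in GENCODE M21, 98.3% of them with the same span. Libraries were unstranded (TruSeq v2, per the labels' protocols).

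Groups and replicate numbers came from sample titles. Counts were tested with edgeR 4.0.16 (R 4.3.3): filterByExpr (14963 genes), TMM scaling, a quasi-likelihood F-test on genotype alone, and Benjamini-Hochberg adjustment over all genes at 0.05. SEs came from the log2 fold change and the F statistic. Ratios between single libraries used CPM + 0.1. The p-values measure the spread between these libraries. Within each group this spread is replicate 1 against replicate 2, which also differ in Xist and Ddx3y reads. Spread between like mice cannot be told apart from that difference. Floors cover counting error only. The test was also run on simulated counts with independent libraries. These held no difference by replicate number and no outlying library, so they do not show how the test behaves on these data.

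Alternatives were other scalings and filters, DESeq2 1.42.0, limma-voom (limma 3.58.1), a replicate block and leaving out each library. The members and lists were chosen with earlier results of these data known. All members were named. From each other list came up to 4 genes with the smallest p, those with the highest and lowest mean level, and defining markers of other cell types. Emcn, Tie1, Esam, Vwf, Trac, Ly6c1, Cd14, C1qa, Fn1 and Col1a2 were named after their values were seen. A symbol on several rows was represented by the row with the most counts. Figures were drawn with matplotlib 3.10.9.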

Additional observations from a re-analysis of the deposited data

How the results depend on the processing

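Over 11 alternatives to the reported test, 102 of 110 member values kept their direction and side of the threshold, 7 changed direction and 1 (Pdgfra without control replicate 1) came to pass. Leaving out control replicate 2, which also left the libraries with and without Xist reads unequal between the groups, reversed 5 members. Across the libraries left out in turn, the log2 fold change ran from -0.19 to 0.0085 for Thy1, -0.12 to 0.74 for Ly6a, -0.29 to 0.84 for Cd44, -1.20 to 0.44 for Pdgfra and -0.37 to 0.47 for Pdgfrb, with one end of each range at control replicate 1 and the other at control replicate 2. It ran from 0.0071 to 0.89 for Alcam, 0.44 to 1.25 for Cspg4, 0.14 to 0.41 for Mcam and -0.95 to -0.21 for Nt5e. Pdgfrb also turned to 0.048 by limma-voom and 0.047 by edgeR with a replicate block. Between 0 and 183 genes and between 0 and 1 members were called when each library was left out, 183 genes without control replicate 1 and 21 without control replicate 2. The member median then ran from 0.16 to 0.25. It was 0.27 by limma-voom and 0.27 with the replicate block. DESeq2 called 23 genes (0 at the same threshold by edgeR). The cause was not tested. Calls were also 0 with RLE factors, with library totals only, without a filter and with a filter of 5 CPM in 2 libraries. With the block 0 genes and 0 members were called. The unadjusted p of edgeR with the block was 0.045 for Eng (SE 0.12) and 0.041 for Cspg4 (SE 0.30). The share of all genes under 0.05 was not taken for that fit. With 2 numbers shared by 2 groups, deviations from the group means correlated at 0.24 over genes within a number, which does not show that the samples were paired. Members had 116 or more reads in every library. Precision is limited by 2 libraries a group, which in each group also differed in Xist and Ddx3y reads.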

Other observations

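Cell type lists that share no member differed in their balance. Of 10 B cell genes, 1 had a fitted value above 0 in rhebCKO and 9 below (median log2 fold change -1.85). Of the 9, 5 had an unadjusted p under 0.05 by edgeR and 0 were called after adjustment. Over all tested genes, 1.10% were lower at that unadjusted p. The summed level of the 10 B cell genes was 803 and 361 CPM in control and 228 and 134 CPM in rhebCKO. Of 7 tested osteoblast genes, 1 was above 0 and 6 below (median -0.37), 3 of them at an unadjusted p under 0.05 and 0 called by edgeR after adjustment. These 3, Sp7, Alpl and Ibsp, were highest in control replicate 2 and lower in both rhebCKO libraries than in either control. Alpl, the bone alkaline phosphatase, had 34.7 and 122 CPM in control and 24.6 and 20.5 CPM in rhebCKO. The summed level of the list, 12820 and 17500 CPM in control and 13140 and 14820 CPM in rhebCKO, was mostly Col1a1, at 11000 and 16330 CPM against 11720 and 13400 CPM.

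Ptprb, an endothelial phosphatase, had 27.7 and 25.4 CPM in control and 41.1 and 42.4 CPM in rhebCKO, with a log2 ratio of 0.57 for replicate 1 and 0.73 for replicate 2 (adjusted p = 1 by edgeR). Kit, the receptor of stem cell factor on blood progenitors and mast cells, had 38.8 and 33.9 CPM in control and 47.3 and 49.9 CPM in rhebCKO (edgeR log2 fold change of 0.42 with SE 0.21, not called).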
